A study of Homo sapiens with 4 samples.

Results

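The genes described here encode the proteins that mark, license and fire replication origins, unwind DNA and copy it at the fork. They were chosen by name: 54 symbols were looked up among the gene names of the deposited count table, and all 54 were found among its 60617 rows. The list was drawn up with earlier results of these data known. All 54 passed the filter on low counts, which kept 15170 genes.

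SCC13 cells are an established line of human cutaneous squamous cell carcinoma, and all samples carry the genotype label WT. CELF2 knockdown cells were infected with a lentivirus expressing an shRNA against CELF2, an RNA-binding protein that acts on mRNA splicing, stability and translation, and control cells with a lentivirus expressing a scrambled shRNA. Each group had 2 polyA RNA libraries. The sources used here do not say whether both knockdown libraries carried 1 shRNA sequence.

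The libraries held 19928788 and 23177056 counts for knockdown replicates 1 and 2, and 27898889 and 17649090 for control replicates 1 and 2. CELF2 itself had 0 counts in both knockdown libraries, and 1 and 0 counts in the controls, so the target gene gives no check of the labels. With so few counts in the controls, these data cannot show whether the shRNA lowered CELF2 mRNA. The 8 keratinocyte markers KRT5, KRT14, KRT6A, TP63, DSP, CDH1, SFN and PERP were counted in every library, and their CPM summed to 23887 and 15617 in the knockdown libraries and 11696 and 16849 in the controls. Of the other cell types' markers, 3 of 6 for fibroblasts (COL1A2, DCN and LUM), 3 of 5 for melanocytes (MLANA, TYR and SOX10), 2 of 4 for immune cells (PTPRC and CD3E) and 0 of 4 for endothelial cells were at 0 in all libraries. Fibroblast markers summed to 38.2 and 21.1 CPM in the knockdown libraries and 13.3 and 16.3 CPM in the controls. Melanocyte markers summed to 3.75 and 3.87 CPM in the knockdown and 2.47 and 2.14 CPM in the controls. Endothelial markers summed to 1.83 and 1.90 CPM in the knockdown and 0.572 and 0.178 CPM in the controls, and immune markers to 0.0494 and 0.169 CPM in the knockdown and 0.0715 and 0 CPM in the controls. Their part in the results was not tested. No label says that the replicates were separate cultures, and the p-values rest on the spread among these libraries alone, and that spread may be technical.

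DNA replication starts at origins bound by the origin recognition complex. In G1 phase CDC6 and CDT1 load the MCM2 to MCM7 ring there, and in S phase the kinases CDC7-DBF4 and cyclin E-CDK2 help turn that ring into an active helicase by joining CDC45 and GINS to it. DNA polymerases, the clamp PCNA and its loaders, and the enzymes that join lagging strand fragments follow the helicase, and many of these genes are transcribed in a burst at the entry to S phase under E2F transcription factors. In bulk RNA, fewer cells in S phase and less of these mRNAs per cell cannot be told apart.

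Nearly all of the 54 replication genes had a lower mean mRNA level in the CELF2 knockdown libraries than in the control libraries. The summed level of the 54 genes was 2867 and 3453 CPM (read counts scaled to library depth with TMM factors) in knockdown replicates 1 and 2, against 6129 and 5071 CPM in control replicates 1 and 2; in all pairs of values below, replicate 1 comes before replicate 2. Log2 fold changes (knockdown over control) were below 0 for 52 genes, as for 50.3% of all tested genes, and above 0 for the cyclin gene CCNE1 and the origin recognition gene ORC4. Their median was -0.843, beside -0.0036 over all tested genes. In 50 of the 54 genes both knockdown libraries lay below both control libraries, beside 27.8% of all tested genes; in CCNE1 they lay above (27.1% of all tested genes), and in ORC3, ORC4 and GINS3 the groups overlapped. Log2 fold changes at or under -1 were found for 21 of the 54 genes and for 3.80% of all tested genes.

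Gene by gene, the test called few of them. At an adjusted p below 0.05 CDC45, MCM5 and DBF4 fell and 51 did not pass (edgeR quasi-likelihood test, Benjamini-Hochberg adjustment over all tested genes), where 0.270% of all tested genes were called lower. Of the 54 genes 0 were called higher (0.606% of all tested genes), CCNE1 alone was higher at an unadjusted p below 0.05 (12.1% of all tested genes), and DESeq2 called 0 higher (4.84% of the genes it tested). At an unadjusted p below 0.05 there were 49 lower genes of the 54, and 9.97% of all tested genes. Between 0.05 and 0.10 stood the adjusted p of 33 further genes, all of them lower, so that 36 of the 54 lay below 0.10, where 3.52% of all tested genes were lower; the 0.10 limit was chosen after the values were seen. DESeq2 called 38 lower, where it called 3.75% of all the genes it tested lower, and limma-voom called 0 of them and 0% of all tested genes. With limma-voom 50 of the 54 were lower at an unadjusted p below 0.05, where 3402 of the 15170 tested genes passed in either direction.

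The libraries within a group differed in these genes as well. Control replicate 1 held the highest value of 48 of the 54 genes and knockdown replicate 1 the lowest of 45. The median log2 ratio of control replicate 1 over control replicate 2 was 0.309 over the 54 genes, beside 0.031 over all tested genes, and that of knockdown replicate 1 over knockdown replicate 2 was -0.242, beside 0.0044. Without control replicate 1 the median log2 fold change over the 54 genes was -0.726 and the test called 0 of them (0% of all genes called lower; 33 of the 54 lower at an unadjusted p below 0.05). Without knockdown replicate 2 the median was -0.964 and 0 were called lower (0% of all tested genes), with 46 lower at an unadjusted p below 0.05. Without control replicate 2 the test called 17 lower (1.67% of all tested genes), and without knockdown replicate 1 it called 7 (0.927%).

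**Figure D1:**
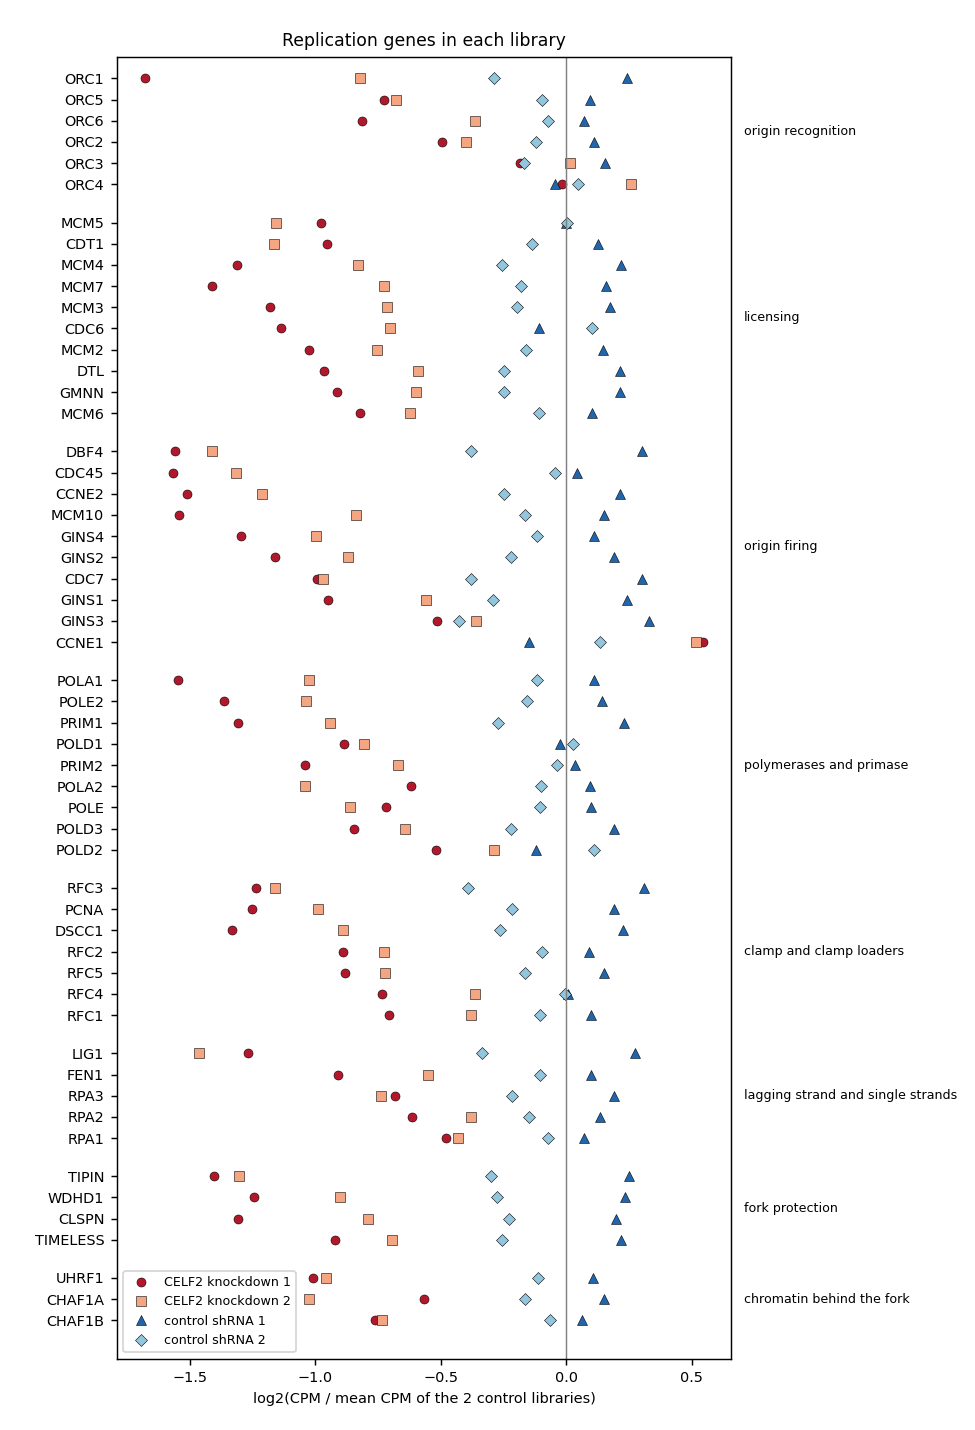
Log2 of the CPM of each gene in each library over the mean CPM of the 2 control libraries, with 1 row per gene, grouped by role and ordered by fold change (circles and squares: knockdown replicates 1 and 2; triangles and diamonds: control replicates 1 and 2). The knockdown symbols lie left of both control symbols in 50 of 54 rows, and control replicate 1 is farthest right in 48.

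Promoter sequence was available for 46 of the 54 genes in the RefSeq promoter table (GRCh38.p14), and is shown because E2F factors are known to bind many of these promoters. The 250 bases before the start were searched on both strands for the E2F words TTTCCCGC, TTTCGCGC, TTTGCCGC and TTTGGCGC, and for CCAAT, the word bound by NF-Y. An E2F word was found in 14 of the 46 promoters (30.4%), in 2.79% of all 27305 promoters in the table and in 4.36% of the 10588 promoters of tested genes. The median log2 fold change was -1.0 over the 14 genes with an E2F word and -0.80 over the 32 without, beside -0.16 and -0.01 over all tested genes with and without one. CCAAT stood in 26 of the 46 promoters (56.5%), in 33.0% of all and in 34.9% of those of tested genes. The median log2 fold change was -0.85 over the 26 genes with CCAAT and -0.83 over the 20 without. Over all tested genes it was -0.05 with CCAAT and 0.01 without. The differences between genes with and without either word were not tested. In the 6 promoters below, printed 5′ to 3′ up to the base before the start, capitals mark E2F words and CCAAT or its reverse complement.
MCM6, chr2:135876444-135876693, minus strand: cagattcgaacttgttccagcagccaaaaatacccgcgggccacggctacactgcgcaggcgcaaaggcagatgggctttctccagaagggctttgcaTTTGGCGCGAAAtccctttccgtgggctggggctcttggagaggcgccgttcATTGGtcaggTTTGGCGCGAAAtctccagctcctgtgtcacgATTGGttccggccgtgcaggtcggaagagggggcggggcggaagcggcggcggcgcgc
PCNA, chr20:5126623-5126872, minus strand: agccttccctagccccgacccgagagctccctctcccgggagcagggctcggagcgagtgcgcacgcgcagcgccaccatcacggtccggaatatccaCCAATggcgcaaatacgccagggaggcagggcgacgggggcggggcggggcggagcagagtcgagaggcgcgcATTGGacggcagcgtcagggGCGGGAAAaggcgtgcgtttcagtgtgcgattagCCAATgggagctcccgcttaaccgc
CDT1, chr16:88803539-88803788, plus strand: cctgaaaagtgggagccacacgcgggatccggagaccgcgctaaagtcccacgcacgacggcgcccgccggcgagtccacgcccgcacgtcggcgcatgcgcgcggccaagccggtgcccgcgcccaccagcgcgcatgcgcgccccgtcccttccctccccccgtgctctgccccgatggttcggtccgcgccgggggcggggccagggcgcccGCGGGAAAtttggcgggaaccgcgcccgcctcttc
LIG1, chr19:48170345-48170594, minus strand: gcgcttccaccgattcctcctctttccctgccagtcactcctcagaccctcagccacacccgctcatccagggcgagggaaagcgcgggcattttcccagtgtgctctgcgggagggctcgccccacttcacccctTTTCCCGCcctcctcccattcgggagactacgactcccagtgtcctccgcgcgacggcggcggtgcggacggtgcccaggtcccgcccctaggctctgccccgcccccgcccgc
CDC45, chr22:19479670-19479919, plus strand: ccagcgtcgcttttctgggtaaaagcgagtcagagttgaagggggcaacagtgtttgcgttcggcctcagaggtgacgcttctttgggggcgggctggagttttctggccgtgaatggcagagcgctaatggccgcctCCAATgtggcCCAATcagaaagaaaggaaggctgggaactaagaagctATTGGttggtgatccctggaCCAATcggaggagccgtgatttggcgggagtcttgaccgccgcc
CCNE1, chr19:29811741-29811990, plus strand: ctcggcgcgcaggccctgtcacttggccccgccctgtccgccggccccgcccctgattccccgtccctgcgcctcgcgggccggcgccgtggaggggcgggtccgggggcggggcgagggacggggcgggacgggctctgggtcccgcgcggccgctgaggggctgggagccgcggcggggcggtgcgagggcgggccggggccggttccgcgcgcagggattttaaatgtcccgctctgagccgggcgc
MCM6 holds 4 matches that overlap in pairs, since each pair reads as an E2F word on both strands, and LIG1 and CDT1 hold 1 each. PCNA holds 1 E2F match and 3 CCAAT matches. CDC45, the called gene of this set, holds 4 CCAAT matches and none of the 4 E2F words searched in this window, while DBF4, which fell as well and is not shown, and CCNE1, whose fold change had the opposite sign, both hold neither word. A match is a description of the letters and does not show binding. Only these 4 E2F words were searched, so a promoter without a match may hold an E2F site of another form. The CDC45 window above, for example, holds tttggcgg, which differs from the word TTTGGCGC in its last letter alone and was not counted as a match. How many promoters hold such near matches was not counted. The split into 14 and 32 promoters rests on this choice of words.

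Among the 6 subunits of the origin recognition complex, which marks origins throughout the cycle, levels differed most for ORC1, an ATPase subunit that joins the complex in G1. ORC1 had 9.97 and 18.1 CPM in the knockdown libraries, against 37.7 and 26.1 CPM in the control libraries, a log2 fold change of -1.19 ± 0.32 (SE). ORC5 had 16.5 and 17.1 CPM with the CELF2 shRNA and 29.1 and 25.5 CPM with the control shRNA (-0.70 ± 0.20). The groups did not overlap for these 2 genes, nor for ORC6 and ORC2, whose log2 fold changes were -0.57 and -0.45. ORC3 had 30.1 and 34.5 CPM in the knockdown libraries, against 38.0 and 30.4 CPM in the control libraries, and ORC4 had 41.0 and 49.5 CPM with the CELF2 shRNA and 40.1 and 42.8 CPM with the control shRNA. These 2 subunits overlapped between the groups, with log2 fold changes of -0.08 ± 0.20 and 0.13 ± 0.18, and the sign of each turned in at least 1 other setting. Within a library the count of ORC1 over that of ORC4 was 0.243 and 0.365 in the knockdown libraries, against 0.939 and 0.610 in the control libraries, a ratio that no scaling between libraries affects. Per kilobase of transcript, ORC1 made up 6.40 ± 1.72% in the knockdown and 10.5 ± 1.60% in the controls of the summed level of the 6 subunits, and ORC4 9.92 ± 0.147% in the knockdown and 6.55 ± 0.988% in the controls (SD, n = 2 each). The exons of ORC2 and ORC4 overlap those of opposite-strand genes, which makes both counts uncertain.

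All 10 licensing genes were lower in both knockdown libraries than in both controls (median log2 fold change -0.917), beside 27.8% of all tested genes, and MCM5 passed. MCM5 (ENSG00000100297, GRCh38 chromosome 22, 35400063 to 35425430, plus strand, protein coding), a subunit of the MCM ring, had 61.6 and 54.4 CPM in the knockdown libraries, against 121 and 121 CPM in the control libraries. Its means were 58.0 ± 5.11 CPM in the knockdown and 121 ± 0.0445 CPM in the controls (SD, n = 2 each), and it fell by 1.06 ± 0.16 on the log2 scale (SE, adjusted p = 0.0483, edgeR quasi-likelihood test, Benjamini-Hochberg adjustment over all tested genes). The 2 control values of MCM5 were almost equal, unlike those of most other subunits.

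The other 5 subunits of the ring did not pass. MCM3, the highest of them per kilobase, had 213 and 294 CPM in the knockdown libraries, against 544 and 421 CPM in the control libraries. MCM4 had 178 and 249 CPM with the CELF2 shRNA and 515 and 370.1 CPM with the control shRNA, and MCM7 had 146 and 235 CPM with the CELF2 shRNA and 434 and 343 CPM with the control shRNA. For these 3 subunits knockdown replicate 1 was lowest and control replicate 1 highest. MCM2 had 72.5 and 87.7 CPM in the knockdown libraries, against 163 and 132 CPM in the control libraries, and MCM6 had 64.4 and 74.0 CPM with the CELF2 shRNA and 122 and 106 CPM with the control shRNA. Log2 fold changes of the 5 ran from -1.05 (MCM4) to -0.72 (MCM6), with adjusted p from 0.0629 to 0.0796 (edgeR quasi-likelihood test, Benjamini-Hochberg adjustment over all tested genes). The summed level of all 6 was 736 and 994 CPM in the knockdown libraries, against 1900 and 1494 CPM in the controls. Per kilobase of transcript, the mean share of each subunit in the sum of the 6 differed by less than 2 percentage points between groups. MCM3 made up 31.4 ± 0.322% in the knockdown and 30.5 ± 0.400% in the controls, MCM7 25.3 ± 3.0% in the knockdown and 26.6 ± 0.0647% in the controls, and MCM6 7.46 ± 0.888% in the knockdown and 6.21 ± 0.400% in the controls of the sum (SD, n = 2 each). The MCM6 share was above both controls in both knockdown libraries, while that of MCM5 was 8.19 and 5.31% in the knockdown libraries, around the 6.22 and 7.90% of the controls. Reads of MCM2 and MCM7 are uncertain where their exons overlap TPRA1 and AP4M1 on the opposite strand.

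The loaders CDC6 and CDT1 and the CDT1 inhibitor geminin (GMNN) were lower in both knockdown libraries than in both controls. CDC6 had 58.4 and 78.9 CPM in the knockdown libraries, against 119 and 138 CPM in the control libraries (log2 fold change -0.90 ± 0.20, SE). CDT1 had 25.0 and 21.6 CPM with the CELF2 shRNA and 52.9 and 44.0 CPM with the control shRNA (-1.06 ± 0.20), and GMNN had 51.2 and 63.7 CPM with the CELF2 shRNA and 112 and 81.2 CPM with the control shRNA (-0.75 ± 0.22). None of these 3 passed (edgeR quasi-likelihood test, Benjamini-Hochberg adjustment over all tested genes, adjusted p = 0.0673, 0.0547 and 0.103). All 3 had an unadjusted p below 0.05, where 9.97% of all tested genes were lower. DESeq2 called all 3, where it called 3.75% of all the genes it tested lower. Counts of GMNN over those of CDT1 were 2.05 and 2.95 in the knockdown libraries, against 2.11 and 1.84 in the control libraries, so the ratio of inhibitor to loader mRNA overlapped between the groups. DTL, which directs CDT1 to degradation, had a log2 fold change of -0.77.

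Of the 10 genes of origin firing, DBF4 and CDC45 fell, and 9 had a log2 fold change below 0, beside 50.3% of all tested genes. CDC45 (ENSG00000093009, GRCh38 chromosome 22, 19479459 to 19520612, plus strand, protein coding), which joins the MCM ring to make the active helicase, had 17.4 and 20.7 CPM in the knockdown libraries, against 53.0 and 49.9 CPM in the control libraries. With means of 19.0 ± 2.34 CPM in the knockdown and 51.5 ± 2.21 CPM in the controls (SD, n = 2 each), it fell 2.70-fold (log2 fold change -1.44 ± 0.19, SE, adjusted p = 0.0483, edgeR quasi-likelihood test, Benjamini-Hochberg adjustment over all tested genes). The libraries of each group lay close together and well apart from those of the other group. DBF4 (ENSG00000006634, GRCh38 chromosome 7, 87876216 to 87909541, plus strand, protein coding), the activating subunit of the CDC7 kinase, had 31.2 and 34.6 CPM in the knockdown libraries, against 113 and 70.6 CPM in the control libraries, and fell 2.80-fold (-1.48 ± 0.25, adjusted p = 0.0492). The 2 control values of DBF4 lay apart, and the lower of them was still above both knockdown values. Counts of DBF4 are uncertain, since its exons overlap SLC25A40 on the opposite strand and it has a pseudogene, DBF4P1. CDC7, the kinase itself, had a log2 fold change of -0.98, and counts of DBF4 over those of CDC7 were 1.505 and 1.64 in the knockdown libraries, against 2.23 and 2.23 in the control libraries.

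The 2 cyclins E, which activate CDK2 at the entry to S phase, stood on opposite sides. CCNE1 had 36.5 and 35.8 CPM in the knockdown libraries, against 22.6 and 27.4 CPM in the control libraries, and CCNE2 had 7.06 and 8.68 CPM with the CELF2 shRNA and 23.3 and 16.9 CPM with the control shRNA. The groups did not overlap for either gene: both knockdown libraries were above the controls for CCNE1 (log2 fold change 0.53 ± 0.19, SE) and below them for CCNE2 (-1.35 ± 0.27). Neither passed (edgeR quasi-likelihood test, Benjamini-Hochberg adjustment over all tested genes; adjusted p = 0.166 and 0.0598). Within a library, counts of CCNE1 over those of CCNE2 were 5.17 and 4.13 in the knockdown libraries, against 0.971 and 1.62 in the control libraries. Exons of CCNE2 overlap those of INTS8 on the opposite strand, so its counts are uncertain.

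The remaining helicase factors had log2 fold changes below 0. MCM10, which helps to start the helicase, had a log2 fold change of -1.15, and the GINS subunits GINS4, GINS2 and GINS1 had -1.14, -1.01 and -0.74. GINS3 had 13.7 and 15.2 CPM in the knockdown libraries, against 24.5 and 14.5 CPM in the control libraries, and its groups overlapped (-0.44 ± 0.29, SE). Per kilobase, GINS3 made up 17.7 ± 1.45% in the knockdown and 13.5 ± 1.72% in the controls of the summed level of the 4 GINS subunits, and GINS2 21.5 ± 0.310% in the knockdown and 25.1 ± 1.09% in the controls (SD, n = 2 each). GINS2, GINS3 and GINS4 share exon positions with opposite-strand genes, which makes their counts and these shares uncertain.

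**Figure D2:**
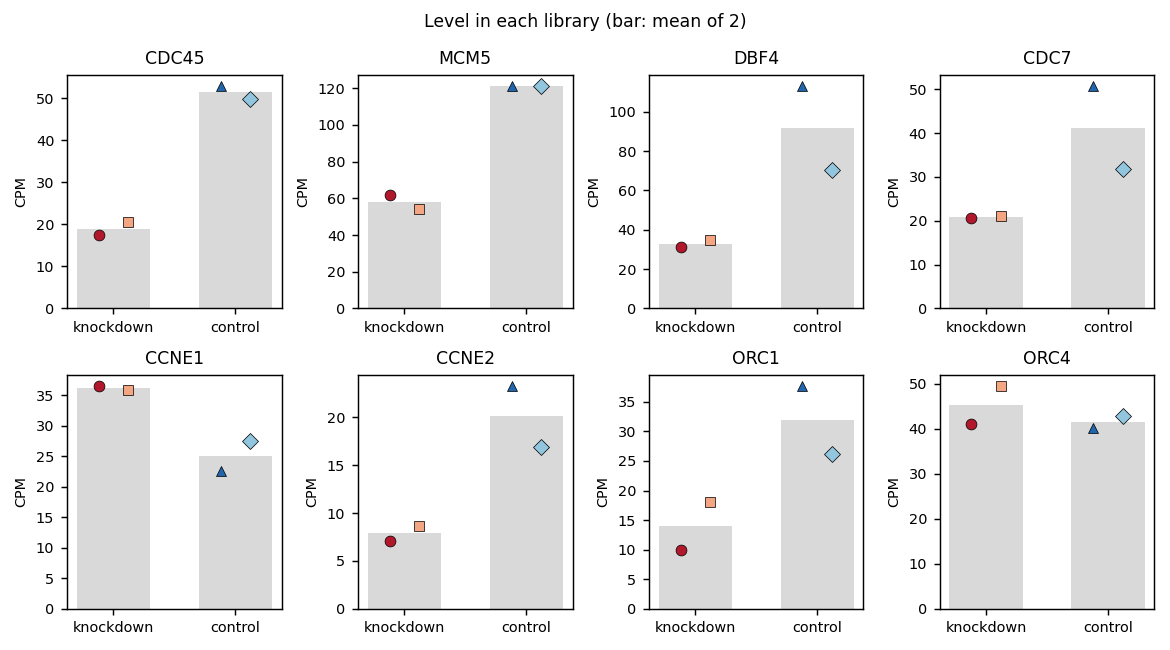
TMM-normalized CPM of 8 genes in each library, knockdown left and control right (bars: mean of 2 libraries; symbols: libraries, as in the plot of all genes by library). CDC45, MCM5 and DBF4 fell, CCNE1 and CCNE2 lie on opposite sides, and the groups overlap for ORC4.

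The 9 polymerase and primase genes were all lower in both knockdown libraries (median log2 fold change -0.843), and 8 of them had an unadjusted p below 0.05. Of all tested genes, 27.8% were lower in both knockdown libraries than in both controls, and 9.97% were lower at that unadjusted p (edgeR). DESeq2 called 3.75% of all the genes it tested lower. POLA1, the catalytic subunit of the polymerase that makes the first stretch of DNA on each primer, had 17.8 and 25.5 CPM in the knockdown libraries, against 56.0 and 47.9 CPM in the control libraries, with a log2 fold change of -1.26 ± 0.23 (SE). POLE2, an accessory subunit of the leading strand polymerase, had 11.2 and 14.0 CPM with the CELF2 shRNA and 31.8 and 25.8 CPM with the control shRNA (-1.19 ± 0.23). POLD3 and POLD2, accessory subunits of the lagging strand polymerase, had the values nearest to 0 of the set. POLD3 had 47.2 and 54.3 CPM in the knockdown libraries, against 96.7 and 72.8 CPM in the control libraries, and POLD2 had 296 and 347 CPM with the CELF2 shRNA and 389.6 and 458 CPM with the control shRNA. POLD2 had a log2 fold change of -0.40 ± 0.18, and the control libraries lay farther from each other than the nearest ones of the 2 groups did; its counts are uncertain because of the pseudogene POLD2P1. The catalytic subunits POLD1 and POLE had log2 fold changes of -0.84 and -0.79, the primase subunits PRIM1 and PRIM2 -1.11 and -0.84, and POLA2 -0.82. Counts of POLA2, PRIM1, POLD1 and POLD3 are uncertain, since their exons overlap those of same-strand genes. None of the 9 passed (edgeR quasi-likelihood test, Benjamini-Hochberg adjustment over all tested genes; smallest adjusted p 0.0534), and DESeq2 called 7 of them lower.

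PCNA, the ring that tethers polymerases to DNA, had the highest level per kilobase of all 54 genes in the controls. PCNA had 156 and 188 CPM in the knockdown libraries, against 424 and 320.3 CPM in the control libraries, with a log2 fold change of -1.11 ± 0.20 (SE, adjusted p = 0.0534, edgeR quasi-likelihood test, Benjamini-Hochberg adjustment over all tested genes). Per kilobase of transcript this was 126 CPM per kilobase in the knockdown and 274 in the controls; in the knockdown POLD2 was higher, at 149. The pseudogenes PCNAP1, PCNAP3 and PCNAP4 make its counts uncertain. Of the 5 subunits of the clamp loader RFC, RFC3 had 25.3 and 26.7 CPM in the knockdown libraries, against 74.0 and 45.5 CPM in the control libraries. RFC1, the large subunit, had 77.3 and 97.0 CPM with the CELF2 shRNA and 135 and 117 CPM with the control shRNA, and RFC4 had 46.0 and 59.4 CPM with the CELF2 shRNA and 76.8 and 76.2 CPM with the control shRNA. Knockdown libraries were below the controls in all 3, with log2 fold changes of -1.20 ± 0.25, -0.53 ± 0.18 and -0.54 ± 0.19. RFC2 and RFC5 lay between, at -0.81 and -0.80, and DSCC1, a subunit of a second clamp loader that serves sister chromatid cohesion, had -1.09. Per kilobase RFC3 made up 8.24 ± 0.632% in the knockdown and 11.1 ± 2.58% in the controls of the 5 RFC mRNAs (SD, n = 2 each). Counts of RFC3 and RFC5, which have pseudogenes, and of RFC4 and RFC5, whose exons overlap opposite-strand genes, are uncertain. None of the 7 genes of clamp and loaders passed. All 7 had an unadjusted p below 0.05, where 9.97% of all tested genes were lower. DESeq2 called 5 lower, where it called 3.75% of all the genes it tested lower.

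Among the genes that finish lagging strands and cover single strands, LIG1 stood lowest. LIG1, the ligase that seals the fragments, had 35.4 and 30.9 CPM in the knockdown libraries, against 103 and 67.5 CPM in the control libraries (log2 fold change -1.36 ± 0.24, SE, adjusted p = 0.0511, edgeR quasi-likelihood test, Benjamini-Hochberg adjustment over all tested genes). FEN1, which trims the flap before ligation, had 70.5 and 90.3 CPM with the CELF2 shRNA and 142 and 123 CPM with the control shRNA (-0.72 ± 0.19). Both control libraries exceeded both knockdown libraries in LIG1 and FEN1. The subunits of the single-strand binding protein RPA had values nearer to 0. RPA1 had 133 and 138 CPM with the CELF2 shRNA and 195 and 177 CPM with the control shRNA, and RPA2 had 45.1 and 53.0 CPM with the CELF2 shRNA and 75.7 and 62.3 CPM with the control shRNA. Their log2 fold changes were -0.46 ± 0.16 and -0.49 ± 0.19, and that of RPA3 was -0.71. None of these 5 passed. All 5 had an unadjusted p below 0.05, where 9.97% of all tested genes were lower. DESeq2 called 2 lower, where it called 3.75% of all the genes it tested lower. LIG1, FEN1, RPA1 and RPA3 share exon positions with other genes, and FEN1 and RPA2 have pseudogenes.

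The 4 fork protection genes, whose products hold the fork together and pass signals when it stalls, had the median log2 fold change -1.045. TIPIN had 6.91 and 7.41 CPM in the knockdown libraries, against 21.7 and 14.8 CPM in the control libraries, and its partner TIMELESS had 86.6 and 102 CPM with the CELF2 shRNA and 191 and 138 CPM with the control shRNA. WDHD1, which links the helicase to the priming polymerase, had 29.2 and 36.9 CPM with the CELF2 shRNA and 81.1 and 56.9 CPM with the control shRNA. In each the higher knockdown value was below the lower control value, with log2 fold changes of -1.36 ± 0.28, -0.80 ± 0.21 and -1.06 ± 0.23 (SE). CLSPN, the checkpoint adaptor claspin, had 21.7 and 31.0 CPM in the knockdown libraries, against 61.5 and 45.7 CPM in the control libraries (-1.03 ± 0.24). Counts of TIPIN and CLSPN are uncertain, since their exons overlap those of other genes, for TIPIN the same-strand pseudogene RPL9P25. None of the 4 passed (edgeR quasi-likelihood test, Benjamini-Hochberg adjustment over all tested genes, smallest adjusted p 0.0617). All 4 had an unadjusted p below 0.05, where 9.97% of all tested genes were lower. DESeq2 called all 4, where it called 3.75% of all the genes it tested lower.

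Behind the fork, UHRF1 brings the maintenance methylase to new DNA, and CHAF1A and CHAF1B are subunits of the CAF-1 histone chaperone. UHRF1 had 57.0 and 59.1 CPM in the knockdown libraries, against 123 and 106 CPM in the control libraries, a log2 fold change of -0.98 ± 0.17 (SE), and stood just above the threshold (adjusted p = 0.0506, edgeR quasi-likelihood test, Benjamini-Hochberg adjustment over all tested genes). CHAF1A had 53.4 and 38.9 CPM with the CELF2 shRNA and 87.6 and 70.5 CPM with the control shRNA, and CHAF1B had 22.7 and 23.2 CPM with the CELF2 shRNA and 40.3 and 36.8 CPM with the control shRNA. The CAF-1 subunits had log2 fold changes of -0.78 ± 0.22 and -0.75 ± 0.18, and in CHAF1A knockdown replicate 2 was the lower of the pair. Exons of CHAF1A and CHAF1B overlap those of other genes, so their counts are uncertain.

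**Figure D3:**
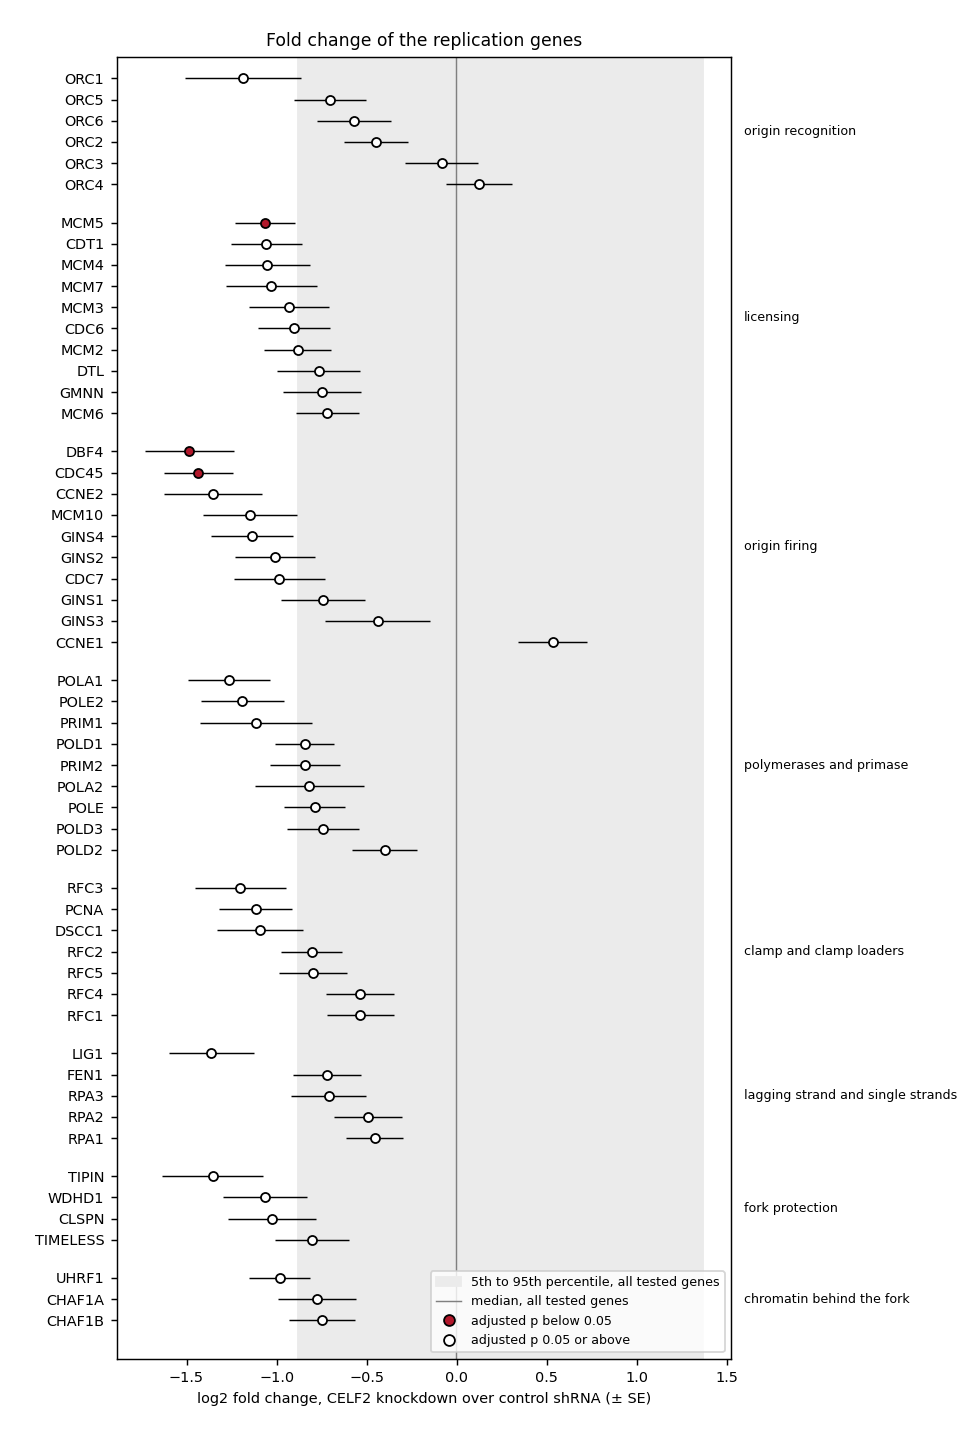
Log2 fold change of each of the 54 genes, knockdown over control, with its standard error (filled: adjusted p below 0.05; open: not called; grey band: 5th to 95th percentile of all tested genes, -0.88 to 1.37). Of the 8 sets, origin firing has the lowest median, -1.073, and origin recognition the highest, -0.510.

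A further 34 genes of replication outside these 54 were listed, and 33 passed the filter; CHTF8 was near the floor of 3 counts. Their median log2 fold change was -0.786, beside -0.0036 over all tested genes, and 32 of the 33 were below 0, beside 50.3% of all tested genes. ASF1B, a histone chaperone that hands histones to CAF-1, had 21.1 and 24.6 CPM in the knockdown libraries, against 60.2 and 52.2 CPM in the control libraries and fell (-1.30 ± 0.19, adjusted p = 0.0483, edgeR quasi-likelihood test, Benjamini-Hochberg adjustment over all tested genes). Without control replicate 1 the adjusted p of ASF1B was 0.16, and without knockdown replicate 2 it was 0.0891. The other 32 did not pass. The lowest were CCNA2, cyclin A2 (-1.69 ± 0.40, SE), PCLAF, which binds PCNA (-1.58 ± 0.32), and TOP2A, the topoisomerase that untangles finished DNA (-1.44 ± 0.36). TOP2A had 179 and 287 CPM in the knockdown libraries, against 845 and 416 CPM in the control libraries, with control replicate 1 far above control replicate 2. At the other end stood POLE4 (-0.32), RNASEH2C (-0.28) and POLD4 (1.47 ± 0.33). POLD4, the smallest subunit of the lagging strand polymerase, had 10.8 and 8.04 CPM in the knockdown libraries, against 2.93 and 3.86 CPM in the control libraries, above both controls in both knockdown libraries, though its counts are uncertain because of an overlapping gene on the same strand. It did not pass (adjusted p = 0.0682), while DESeq2 called 1 of the 33 genes higher, where it called 4.84% of all the genes it tested higher, and 16 lower, where it called 3.75% lower.

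Several replication genes share their start region with a gene read in the other direction. In GENCODE v29, 15 of the 54 have a protein-coding neighbor on the opposite strand that starts within 1000 bases upstream or overlaps the start by up to 100 bases, and in 13 pairs both genes were tested. The replication gene had the lower log2 fold change in 12 of the 13 pairs, with a median of -1.05 beside -0.17 for the neighbors. PCNA, at -1.11, starts 160 bases from CDS2, at 0.45. CDC45, at -1.44, starts 244 bases from UFD1, at -0.40, and MCM4, at -1.05, starts 2 bases from PRKDC, at -0.53. The neighbors ran from -0.53 to 0.47. Among them the test called 0 (edgeR quasi-likelihood test, Benjamini-Hochberg adjustment over all tested genes), and DESeq2 called 0. Of all tested genes, edgeR called 0.270% lower and 0.606% higher. DESeq2 called 3.75% lower and 4.84% higher of those it tested. With 13 genes, 0 calls lie near those shares and do not set the neighbors apart. An unadjusted p below 0.05 was found for 3 of the 13, and for 3350 of the 15170 tested genes (same edgeR test). The exception was ORC3, at -0.08, beside RARS2, at -0.19. The difference within pairs was not tested. The replication genes were low as a set, so most would lie below a gene near the median of all tested genes, neighbor or not.

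**Figure D4:**
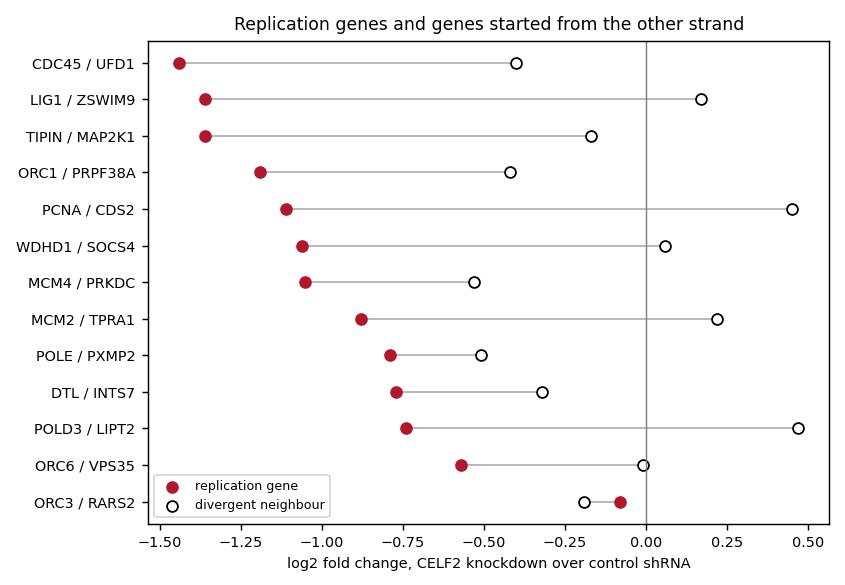
Log2 fold change, knockdown over control, of 13 replication genes (filled) and of the protein-coding gene that starts next to each on the opposite strand (open), 1 pair per row. The replication gene lies left of its neighbor in 12 of 13 rows.

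The median fold change of these genes moved less across settings than the number called. Over the 13 other settings tried the median over the 54 genes ran from -0.965 to -0.726, and over all tested genes from -0.018 to 0.057. The number called lower ran from 0 to 41: 41 with no filter on low counts (3.07% of all tested genes), 38 with the replicate block (4.13%), 13 with the GC correction (1.19%), 7 with library totals only (0.725%), 5 with RLE factors (0.501%) or a minimum count of 50 (0.437%), and 4 with upper-quartile factors (0.303%). CDC45, MCM5 and DBF4 were each called in 10 of the 13, and in none without control replicate 1, without knockdown replicate 2 or with limma-voom. Their adjusted p were 0.142 (CDC45), 0.16 (MCM5) and 0.164 (DBF4) without control replicate 1, and 0.0753, 0.107 and 0.11 without knockdown replicate 2 (edgeR, same test). In those 13 settings CDC45 stood between -1.57 and -1.31, MCM5 between -1.20 and -0.98, and DBF4 between -1.77 and -1.11.

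**Figure D5:**
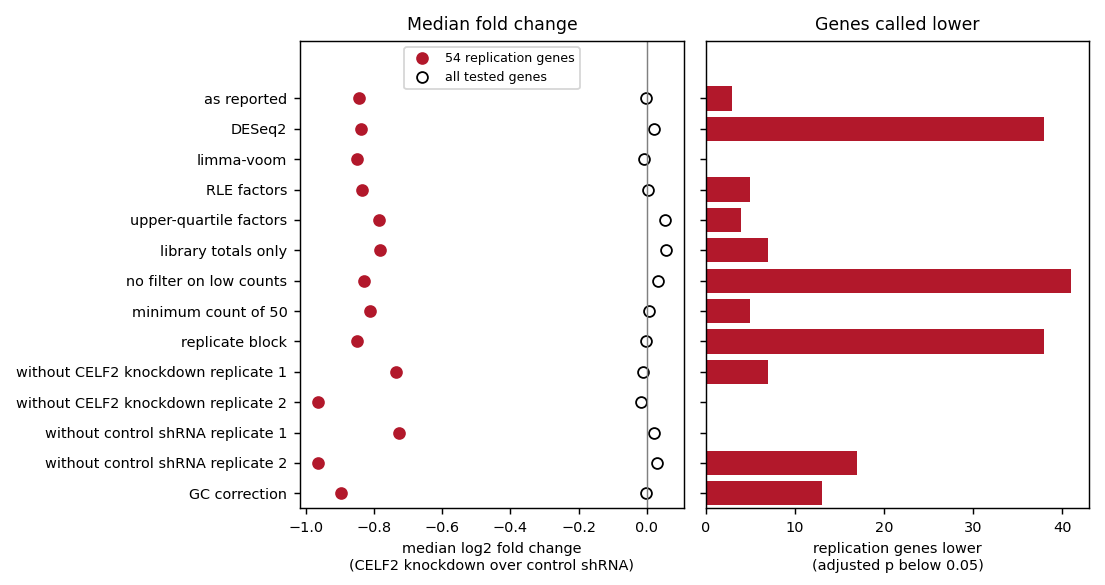
Left, median log2 fold change (knockdown over control) of the 54 replication genes (filled) and of all tested genes (open) as reported and under 13 other settings; right, number of the 54 genes called lower at an adjusted p below 0.05. The medians stay between -0.965 and -0.726, and the number called lies between 0 and 41.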

How the data were processed

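PolyA RNA of 2 CELF2 knockdown and 2 control shRNA libraries was compared, with groups and replicate numbers from the sample titles. The authors deposited raw read counts per Ensembl gene; HISAT2, edgeR and GRCh38 are named in the submitters' processing notes, and the counting program, annotation release and strand setting are not stated in the sources. Every row names a gene. Counts were tested with edgeR 4.0.16 (quasi-likelihood, TMM, filterByExpr with a minimum count of 10, Benjamini-Hochberg over all 15170 tested genes, threshold 0.05; R 4.3.3), which was tested on simulated data first. Standard errors are the log2 fold change over the square root of its F statistic. The common biological coefficient of variation was 21.6%. Alternatives used DESeq2 1.42.0, limma 3.58.1 (voom), other scalings and filters, and each library left out. The GC correction was chosen after seeing the data. Of the cell type markers, 1 gene is not reported here. The members and lists were chosen with earlier results of these data known; named genes were those called, the 2 lowest and 2 highest of each role, and MCM2 to MCM7, PCNA, CDC6, CDT1, GMNN, CCNE1 and CCNE2. Levels per kilobase use the longest APPRIS principal transcript in GENCODE v29 (GRCh38). A floor of 3 counts is 0.108 to 0.170 CPM and covers counting error only. The chi-square per degree of freedom was 52.7 between the knockdown and 58.6 between the control libraries, so replicates are distinct libraries. Genes whose exons overlap another gene (23 of the 54) or that have a pseudogene named after them in GENCODE (7 of the 54) have uncertain counts. With 2 libraries a group, the smallest exact permutation p for a single value is 0.333 (two-sided), so none is given.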

Additional observations from a re-analysis of the deposited data

How the results depend on the processing

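In every setting tried 52 of the 54 genes kept their direction; ORC3 turned to 0.02 without knockdown replicate 1, 0.08 without control replicate 1 and 0.06 after the GC correction, and ORC4 to -0.02 without knockdown replicate 2 (ranges with each library left out, -0.22 to 0.08 and -0.02 to 0.26). Counts of calls moved, and the cause was not tested. Of all tested genes, 133 were called as reported, 1303 with DESeq2, 0 with limma-voom (3402 at an unadjusted p below 0.05), 207 with RLE factors, 416 with library totals only, 2139 with no filter on low counts, 1579 with the replicate block, 352 with the GC correction, and 0 to 616 with each library left out. Of the 54 genes, 3 were called lower as reported, 38 with DESeq2, 0 with limma-voom, 5 with RLE factors or a minimum count of 50, 7 with library totals only, 41 with no filter, 38 with the replicate block, 13 with the GC correction, and 0 to 17 with each library left out. Of the other replication genes, 1 was called lower as reported, 16 with DESeq2, 0 with limma-voom, 2 with RLE factors, upper-quartile factors or a minimum count of 50, 4 with library totals only, 18 with no filter, 16 with the replicate block, 6 with the GC correction, and 0 to 9 with each library left out. A fit with 1 library in a group assumes that it varies like the other group. Of all calls 69.2% were higher as reported, 56.3% with DESeq2 and 48.9% with the GC correction. The labels share replicate numbers but do not say whether same-numbered libraries were handled as pairs. The correlation of deviations of same-numbered libraries was 0.191, which cannot settle this. The block result is therefore not read as paired evidence.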

Other observations

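Of the 34 further replication genes, 27 had a promoter in the RefSeq table, and an E2F word was found in 2 of them (7.41%), beside 14 of 46 promoters (30.4%) of the 54 genes. CCAAT stood in 14 of the 27 (51.9%). The CHR words TTTGAA and TTCGAA, known from promoters of genes of G2 phase and mitosis, stood in 3 of the 27 (11.1%) and in 1 of the 46 (2.17%), beside 14.6% of all promoters and 9.44% of the promoters of tested genes. These shares are descriptions of the letters in the 250 bases before the start.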
